A study of Mus musculus with 11 samples.

Results

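Amacrine cells are the inhibitory interneurons of the inner retina. Most release GABA or glycine, and small subsets add acetylcholine, dopamine or a peptide, so the enzymes and transporters of these transmitters serve as their markers. The 9 genes described here were chosen by name and comprise the GABA-synthesizing enzymes Gad1 and Gad2, the vesicular inhibitory amino acid transporter Slc32a1, the glycine transporter Slc6a9, the cholinergic genes Chat and Slc18a3, the dopaminergic gene Th, and the transcription factors Tfap2a and Tfap2b. All 9 were found among the 23284 genes of the table and all 9 passed the filter on low values, which left 14584 genes for testing. Of these markers, Gad1, Gad2 and Slc32a1 are also used by horizontal cells, and Tfap2a and Tfap2b are made by horizontal cells as well as amacrine cells.

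Whole retina of wild-type mice (5 libraries) was compared with retina of Nrl knock-out mice (6 libraries), all at postnatal day 21. Nrl encodes the transcription factor that directs photoreceptor precursors to the rod fate, and without it the outer retina fills with cone-like cells, while amacrine cells do not make Nrl. The labels give neither strain nor sex nor the number of animals behind a library, so p-values measure only the spread between these libraries, of which a part may be technical. The targeted gene Nrl had 37017 ± 1947 normalized counts in wild-type libraries (SD, n = 5) and 51.7 ± 5.1 in knock-out libraries (SD, n = 6). All 6 rod genes checked fell and all 6 cone genes rose.

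Each library held between 14907613 and 20685840 reads in genes. The least deeply sequenced libraries, wild-type replicate 1 and knock-out replicate 2, stood apart together at one end of the second principal component (26.5 and 19.0), which held 7.34% of the variance against 76.7% for the first. A normalized count is the number of reads of a gene divided by the size factor of its library. Fold changes are differences of log2(normalized count + 1), knock-out minus wild-type, and a gene was called where limma gave a Benjamini-Hochberg adjusted p under 0.05 over all tested genes. In bulk tissue, fewer cells of a type and less RNA per cell cannot be told apart.

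All 9 amacrine genes fell in the knock-out, with changes from -12.9% for Tfap2a to -38.9% for Th. limma called 22.7% of all tested genes lower and 23.6% higher, so a call in either direction was common. The 9 had a median log2 fold change of -0.35, and the tested genes as a whole one of -0.01. No amacrine gene was called higher in limma, edgeR or DESeq2, also at an unadjusted p under 0.05, which follows from all 9 being called lower there. In normalized counts the genotypes did not overlap for 8 of the 9, with every wild-type library above every knock-out library. That held for 14.5% of all tested genes in that direction. Tfap2a was the exception. With reads scaled to library totals, the genotypes overlapped for Gad2, Slc6a9, Slc18a3 and Tfap2b as well.

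**Figure D1:**
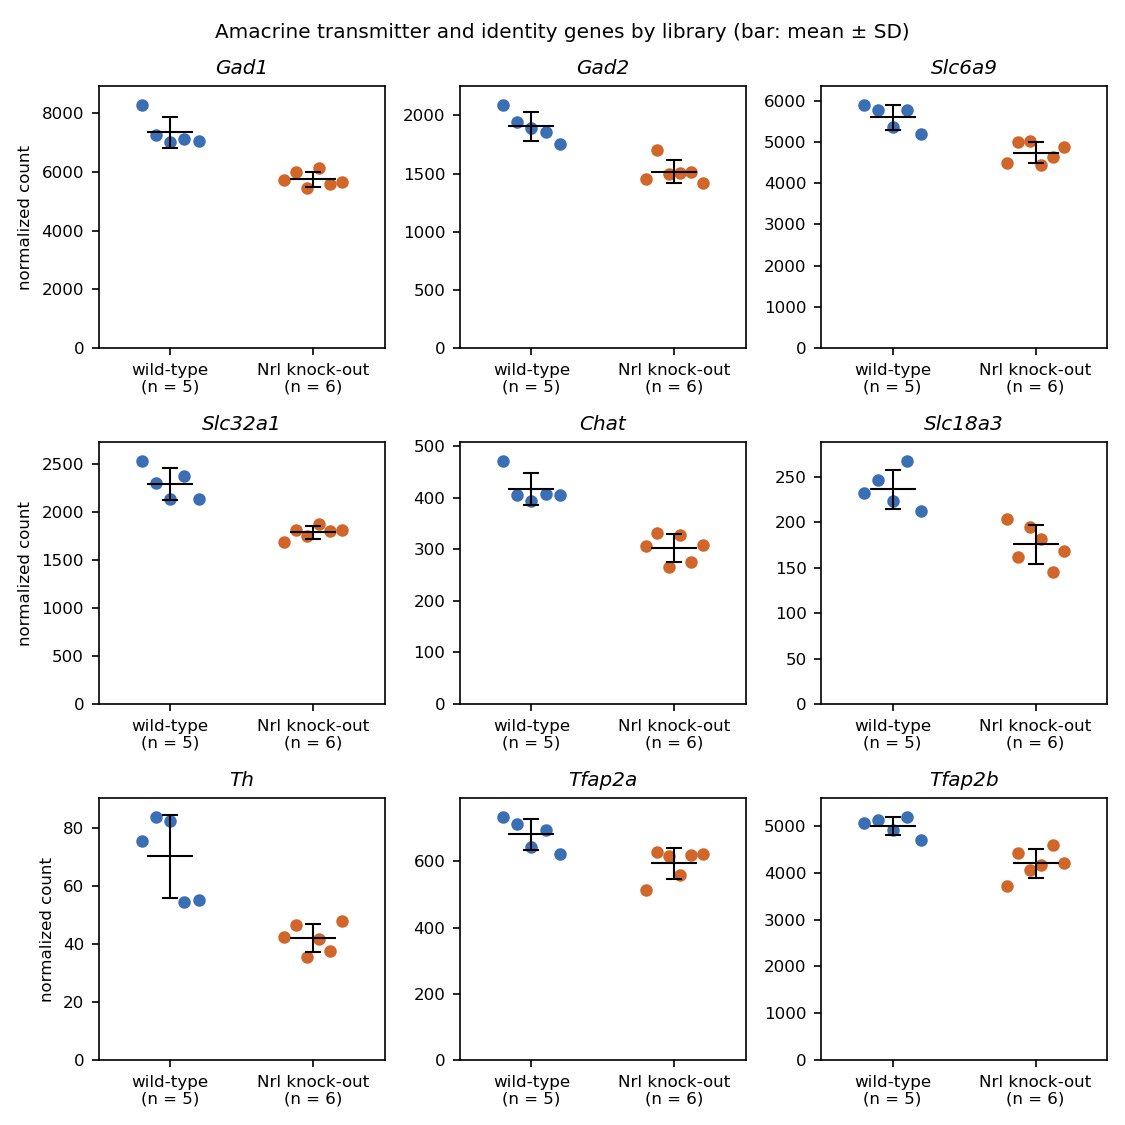
Normalized counts of the 9 genes (vertical axes, each from 0) in the 5 wild-type and 6 Nrl knock-out libraries. Each point is a library and the bars give mean ± SD. The groups overlap for Tfap2a and for no other of the 9.

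Gad1 and Gad2 encode the glutamate decarboxylases GAD67 and GAD65, which make GABA from glutamate. Gad1 stood at 8261, 7264, 7032, 7109 and 7043 normalized counts in wild-type replicates 1 to 5, and in the knock-out its lowest value was 5448, its median 5685 and its highest 6116. Wild-type replicate 1 was the high one, and the other 4 wild-type libraries lay within a narrow band above all knock-out libraries. Gad1 fell by 0.35 on the log2 scale (SE 0.05, adjusted p = 4.89e-06, limma), and by 0.32 without wild-type replicate 1 and knock-out replicate 2.

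Gad2 stood at 2086, 1945, 1891, 1856 and 1751 normalized counts in wild type and between 1422 and 1705 in the knock-out, with a median of 1503. Knock-out replicate 2 was the high library there and came near the lowest wild-type library. Gad2 fell by 0.33 (SE 0.05, adjusted p = 3.93e-05, limma). The vesicular transporter Slc32a1, which loads GABA and glycine into synaptic vesicles, stood at 2528, 2302, 2136, 2375 and 2137 in wild type and between 1686 and 1880 in the knock-out, with a median of 1805. It fell by 0.36 (SE 0.05, adjusted p = 5.75e-06, limma), and its knock-out libraries lay close together, with a coefficient of variation of 3.66% against 7.26% in wild type.

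The changes of these 3 genes of GABA transmission were between -0.36 and -0.33. The ratio of Gad2 to Gad1 within a library does not depend on how libraries are scaled. Its log2 value averaged -1.93 ± 0.05 over wild-type libraries (SD, n = 5) and -1.91 ± 0.08 over knock-out libraries (SD, n = 6), a difference of 0.02 (exact two-sided permutation p = 0.587, adjusted 0.868 over 6 pairs). The interval of shifts that the exact test did not reject at the 95% level ran from -0.08 to 0.12. For Slc32a1 to Gad1 the log2 ratios were -1.67 ± 0.06 and -1.67 ± 0.05 in the same order, and the interval of the difference ran from -0.08 to 0.08 (exact permutation p = 0.903).

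Slc6a9 encodes GlyT1, the plasma membrane glycine transporter that marks glycinergic amacrine cells. It stood at 5890.3, 5784, 5354, 5779 and 5199 normalized counts in wild type, and between 4449.8 and 5020.4 in the knock-out with a median of 4768. The groups were separated by a small gap, since wild-type replicate 5 stood only slightly above knock-out replicate 3. Slc6a9 fell by 0.24 (SE 0.05, adjusted p = 0.00031, limma), and with libraries scaled to their total its value was -0.10 and the call ended (adjusted p = 0.0564). The log2 ratio of Slc6a9 to Gad1 was -0.39 ± 0.08 in wild type and -0.28 ± 0.12 in knock-out retina, a difference of 0.11 with an interval from -0.025 to 0.25 (exact permutation p = 0.0996, adjusted 0.571). In the mouse annotation GENCODE M21, 38.8% of the exon bases of Slc6a9 are also exon of Ccdc24 on the opposite strand. The libraries were stranded per the labels, but how the counting used strand was not given, so the Slc6a9 values are uncertain there. Ccdc24 had 1886 ± 182 normalized counts in wild type and 501 ± 76.3 in knock-out retina (-1.92, adjusted p = 8.36e-11, limma), and its part in the Slc6a9 values was not tested. Antisense genes also share 24.9% of the exon bases of Slc32a1 and from 1.63% to 8.47% each, for 3 genes, of those of Tfap2a.

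Chat encodes choline acetyltransferase, which makes acetylcholine, and Slc18a3 encodes the vesicular acetylcholine transporter VAChT. In the retina both mark starburst amacrine cells. The genes form the cholinergic locus, in which Slc18a3 lies inside Chat on the same strand. The annotated starts of the genes are 1059 bases apart on chromosome 14, and no exon bases are shared in GENCODE M21. The stretch upstream of the Slc18a3 start is shown because it lies inside Chat and because it holds the AP-2 motif, the letters that proteins of the Tfap2 family are known to bind. It is RefSeq sequence of build GRCm38.p6 (the submitters' processing notes name mm9), minus strand, at chr14:32464881-32465100, and ends 30 bases before the start. Capitals mark 3 matches to GCCNNNGGC on either strand, the first pair of which overlap.
Slc18a3 upstream: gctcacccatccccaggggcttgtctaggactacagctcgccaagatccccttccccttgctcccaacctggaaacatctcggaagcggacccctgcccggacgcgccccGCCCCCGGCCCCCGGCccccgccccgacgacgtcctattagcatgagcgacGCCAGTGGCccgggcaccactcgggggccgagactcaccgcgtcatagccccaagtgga
At least 1 match stood in the 250 bases upstream of 13.7% of 32851 annotated starts. The 9 genes have 12 such stretches, of which 2 held a match, those of Slc18a3 and Gad2. A match is a description of the letters and not a binding site.

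Chat stood at 471, 406, 394, 407 and 406 normalized counts in wild-type replicates 1 to 5, and between 266 and 332 in the knock-out with a median of 308. Wild-type replicate 1 was again the high library, and the lowest wild-type library stood clear of the highest knock-out library. Chat fell by 0.46 (SE 0.07, adjusted p = 3.62e-05, limma). Slc18a3 stood at 232, 247, 223, 267 and 212 in wild type, and between 145 and 203 in the knock-out with a median of 175. It fell by 0.43 (SE 0.09, adjusted p = 0.000928, limma). The libraries that were high for Chat were not those that were high for Slc18a3: in the knock-out, replicate 2 was highest for Chat and replicate 1 for Slc18a3. The log2 ratio of Slc18a3 to Chat was -0.77 ± 0.15 in wild type and -0.73 ± 0.20 in knock-out retina, and the interval of the difference ran from -0.215 to 0.30 (exact permutation p = 0.723).

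Th encodes tyrosine hydroxylase, the rate-limiting enzyme of dopamine synthesis, which marks the sparse dopaminergic amacrine cells. It had the fewest reads of the 9, between 40 and 91 reads in a library. The stretch upstream of its annotated start is shown for the cyclic AMP response element (CRE), a known element of this promoter. It is RefSeq sequence of build GRCm38.p6, minus strand, at chr7:142900026-142900245, and capitals mark the single match to TGACGTCA, which begins 45 bases before the start.
Th upstream: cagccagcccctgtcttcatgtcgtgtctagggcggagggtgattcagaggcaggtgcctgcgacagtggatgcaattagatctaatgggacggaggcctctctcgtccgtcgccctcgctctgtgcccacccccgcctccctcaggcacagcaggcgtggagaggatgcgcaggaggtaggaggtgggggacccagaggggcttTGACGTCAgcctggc
TGACGTCA, which reads the same on both strands, stood in 1.55% of the 250-base stretches upstream of annotated starts. Of the 12 such stretches of the 9 genes, only 1 held it, that of Th.

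Th stood at 75.5, 83.8, 82.5, 54.5 and 55.1 normalized counts in wild-type replicates 1 to 5, and between 35.7 and 48.0 in the knock-out with a median of 42.1. The wild-type libraries fell into 3 higher and 2 lower values, and the lower pair still lay above every knock-out library. Th fell by 0.71 (SE 0.15, adjusted p = 0.000656, limma), with 4.28% of all tested genes having a lower fold change. The wild-type coefficient of variation of Th was 20.6%, where counting error alone gives 12.1%, and in the knock-out it was 11.5%, where counting error alone gives 15.2%. The log2 ratio of Th to Chat was -2.30 ± 0.25 in wild type and -2.43 ± 0.07 in knock-out retina, a difference of -0.13 with an interval from -0.39 to 0.095 (exact permutation p = 0.29). The ratios had 1 added to each CPM, the read count scaled to a common library total. With less than 1 added the Th to Chat difference was -0.24, and with 5 added it turned to 0.035. Its size and sign thus depended on the added number.

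Tfap2a and Tfap2b encode AP-2alpha and AP-2beta, related transcription factors needed for amacrine and horizontal cell development. Tfap2b stood at 5066, 5119.95, 4909.7, 5180.0 and 4706 normalized counts in wild type, and between 3724 and 4598 in the knock-out with a median of 4184. Knock-out replicate 1 was the low library and replicate 5 the high one, near the lowest wild-type library. Tfap2b fell by 0.25 (SE 0.05, adjusted p = 0.000294, limma), and with libraries scaled to their total its value was -0.12 and the call ended (adjusted p = 0.0522). Tfap2a stood at 733, 714, 643, 695 and 623 in wild type, and between 514 and 628 in the knock-out with a median of 619. Wild-type replicate 5 lay below 2 knock-out libraries. Tfap2a fell by 0.20 (SE 0.06, adjusted p = 0.0164, limma), and with libraries scaled to their total its value was -0.06 and it was not called (adjusted p = 0.42). The log2 ratio of Tfap2b to Tfap2a was 2.84 ± 0.06 in wild type and 2.79 ± 0.07 in knock-out retina, with an interval of the difference from -0.145 to 0.035 (exact permutation p = 0.19).

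Of the 6 ratios compared, none passed after adjustment, the lowest adjusted p being 0.571. The smallest raw p that this design can give is 0.00216. The fold changes of the 9 genes spanned -0.20 to -0.71, and in these 6 pairs a difference between genes was not shown.

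**Figure D2:**
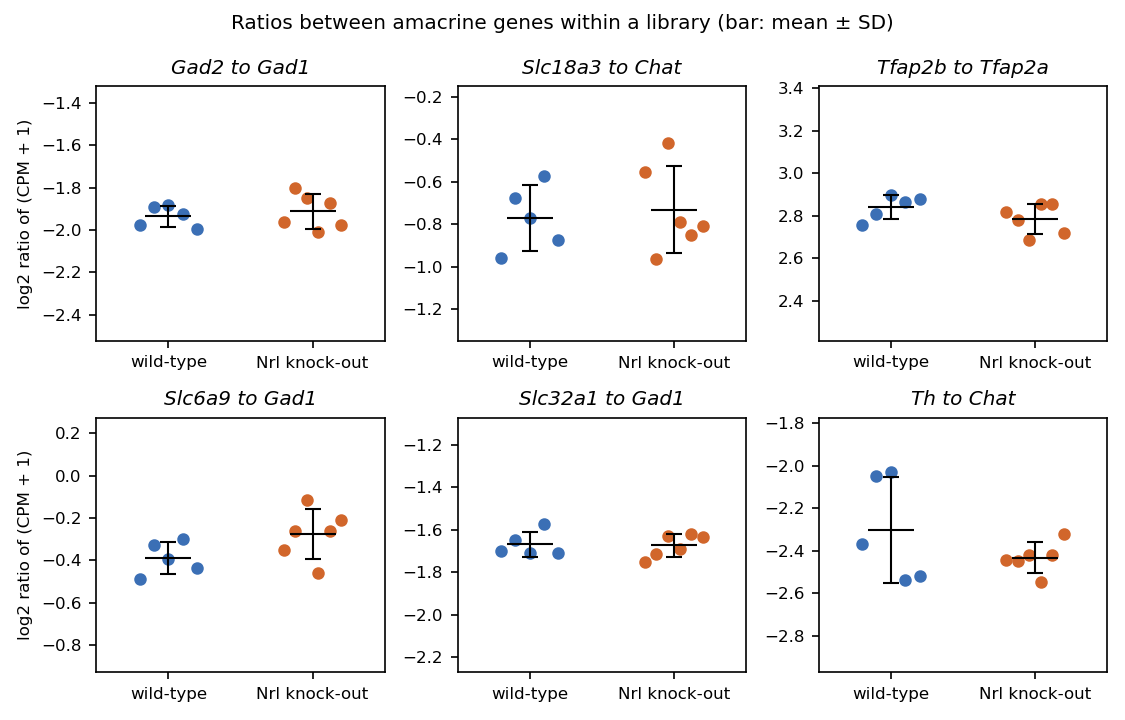
log2 ratios of (CPM + 1) between 2 amacrine genes within each library (vertical axes, all spanning the same range), with mean ± SD. The wild-type and Nrl knock-out libraries overlap in all 6 panels.

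The size of the falls depended on the scaling of the libraries. With libraries scaled to their total in place of the authors' size factors, the median over every tested gene went from -0.01 to 0.13, and 77.4% of all calls were higher in the knock-out against 51.1%. The median of the 9 amacrine genes moved with it, from -0.35 to -0.22. Rescaling shifts all genes of a library alike, so the gap of 0.34 to the median of all genes was kept by construction. All 9 values remained negative, and 6 of the 9 were called, namely Gad1 (-0.22), Gad2 (-0.19), Slc32a1 (-0.22), Chat (-0.33), Slc18a3 (-0.29) and Th (-0.58), where 11.7% of all tested genes were called lower. All 9 were called lower in edgeR with TMM scaling, beside 22.3% of all tested genes, and in DESeq2, beside 22.8%. The authors' deposited table gives values between -0.72 for Th and -0.20 for Tfap2a, with adjusted p-values from 3.73e-11 for Gad1 to 0.0132 for Tfap2a.

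**Figure D3:**
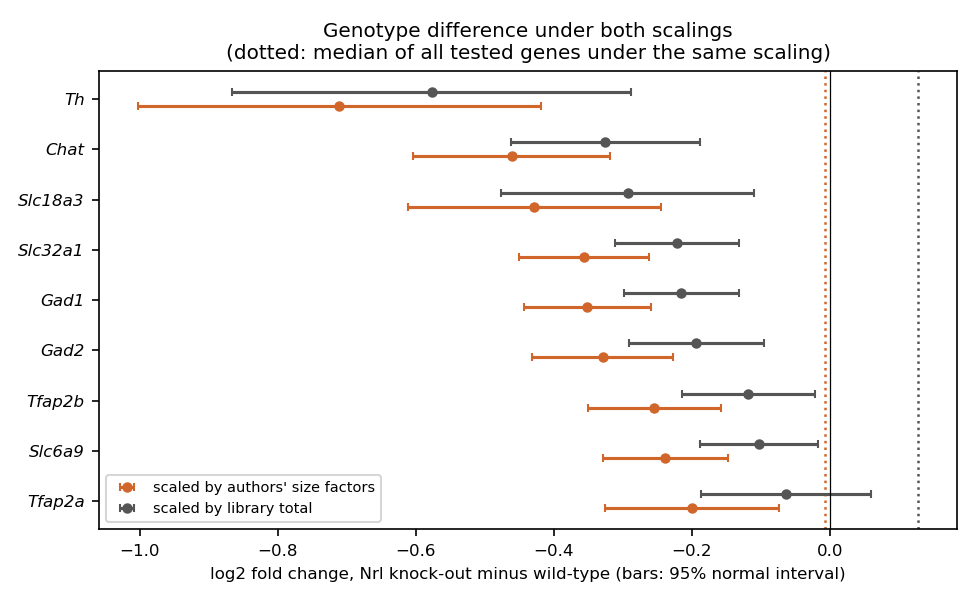
log2 fold changes of the 9 genes (horizontal axis, points with 95% normal intervals) with the authors' size factors and with library totals, beside the median of all tested genes (dotted lines, -0.01 and 0.13). All 9 points lie below 0 under both scalings, and the bar of Tfap2a crosses 0 with library totals.

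The genes deviated together within a genotype in some libraries. In wild-type replicate 1, 8 of the 9 genes lay above their own genotype's mean, and in wild-type replicate 5 all 9 lay below it, with median deviations of 0.13 and -0.11 on the log2 scale. In knock-out replicate 2, 8 of the 9 lay above their mean (median 0.08). Wild-type replicate 1 and knock-out replicate 2 had the fewest reads of their genotypes, and the part of depth in this was not tested. Without both of these libraries all 9 genes were still called, with values from -0.71 for Th to -0.19 for Tfap2a, and leaving out any single library ended no call. Summed, the 9 genes took between 0.117% and 0.131% of reads in wild type and between 0.106% and 0.116% in the knock-out. The groups did not overlap in this summed share of the library total. Taken singly by library total, Gad2, Slc6a9, Slc18a3, Tfap2a and Tfap2b did overlap between genotypes.

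**Figure D4:**
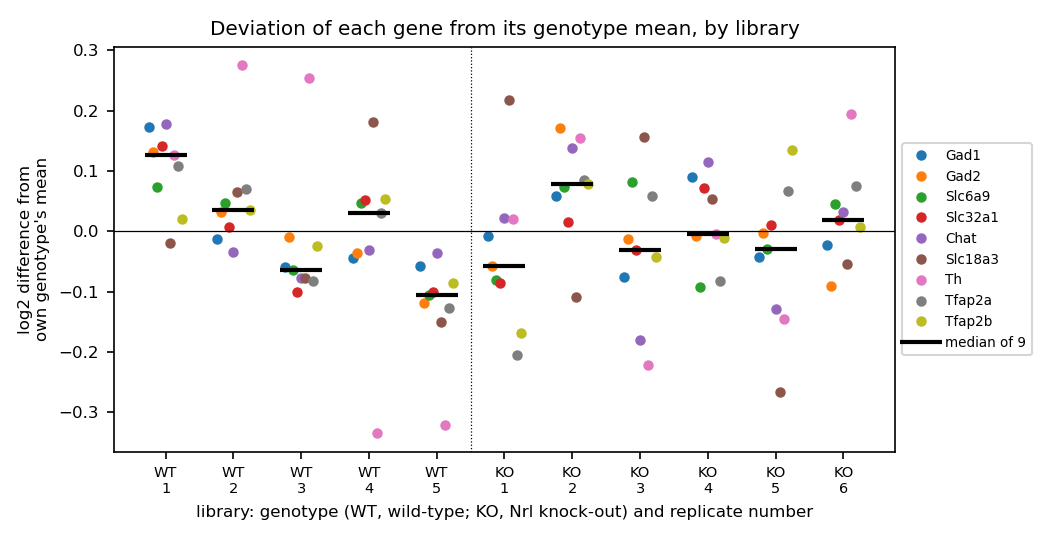
log2 difference of each of the 9 genes from the mean of its own genotype (vertical axis) in each library (horizontal axis), with the median of the 9 as a black bar. The median is highest in wild-type replicate 1 (0.13) and lowest in wild-type replicate 5 (-0.11).

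Levels were compared between genes per length, as reads divided by exon length and by library total (RPKM), with exon lengths from GENCODE M21, while the annotation used for counting is not given. In wild type Gad1 stood highest, at 88.8 ± 5.2 RPKM (SD, n = 5), followed by Slc6a9 at 80.4 ± 4.0. Slc32a1 (43.4 ± 2.8) and Tfap2b (42.4 ± 1.7) came next and did not differ beyond their spread. Gad2 stood at 17.5 ± 0.98. Tfap2a (8.02 ± 0.50) and Chat (7.70 ± 0.47) overlapped, and Slc18a3 (5.18 ± 0.50) and Th (1.57 ± 0.32) closed the order. In the knock-out Gad1 (76.5 ± 3.2) and Slc6a9 (74.9 ± 3.7) overlapped. In wild type a narrow gap parted them, the lowest Gad1 value being 85.1 and the highest Slc6a9 value 84.2. A genotype difference in their ratio was not shown (adjusted permutation p = 0.571), and the exon bases shared with Ccdc24 bear on Slc6a9 here too. Tfap2b (39.1 ± 2.9) and Slc32a1 (37.2 ± 1.3) changed places but again overlapped, as did Tfap2a (7.69 ± 0.59) and Chat (6.15 ± 0.52) by a narrow margin. The remaining order was the same as in wild type.

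For each of the 9 genes the most similar profiles over the 11 libraries were sought by the root mean square difference between log2 profiles, each centred on its own mean. Among the nearest to Gad1 was Hmgn1 (0.037), and the nearest to Slc32a1 were Slc6a17 (0.037), a transporter gene of synaptic vesicles, and Frat1 (0.043). Ulk2 (0.040) was nearest to Gad2, and Grk5 (0.047) and Ybx1 (0.055) were nearest to Chat, and Cyp2u1 (0.096) and Cldn25 (0.10) to Slc18a3. Mgat5 and A230051G13Rik were nearest to both Slc6a9 (0.045 and 0.040) and Tfap2a (0.049 and 0.054), Dach1 (0.050) and Recql (0.050) to Tfap2b, and 2010305A19Rik (0.15) and 5730469M10Rik (0.15) to Th. Among the 9 themselves the closest profiles were those of Gad1 and Slc32a1 (0.051), followed by Slc6a9 and Tfap2a (0.055), while Chat and Slc18a3 were not among each other's nearest 100. The points share the genotype difference and the depth of 11 libraries, so these values only describe likeness.

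Other genes of amacrine cells were counted by list. Of 15 genes of amacrine subtypes and their peptides, 6 fell, none rose and 9 were not called, with a median log2 fold change of -0.22. Of all tested genes 22.7% were called lower and 23.6% higher. By library totals 6 of the list were lower as well, beside 11.7% of all tested genes. The number higher at an unadjusted p under 0.05 was also 0 in limma, edgeR and DESeq2. Tac1, the substance P precursor gene, stood at 528, 399.5, 443, 361 and 393 normalized counts in wild type and between 198 and 274 in the knock-out, and fell by 0.84 (SE 0.09, adjusted p = 5.48e-07, limma). Nos1, neuronal nitric oxide synthase, stood at 235, 183, 163, 174 and 178 in wild type and between 86.3 and 124 in the knock-out, and fell by 0.79 (SE 0.11). Vip, the gene of vasoactive intestinal peptide, stood at 494, 433, 419, 383 and 365 in wild type and between 217 and 296 in the knock-out, and fell by 0.77 (SE 0.09). For these 3 genes every wild-type library lay above every knock-out library, as for 14.5% of all tested genes. They were picked as the called genes of the list with the largest changes. Whether they fell by more than the 9 genes was not tested. The other called genes, named here because they were called, were Crh (-0.73), Sst (-0.57) and Cartpt (-0.39). Calb2, which encodes calretinin, had the highest counts of the list, 7981 ± 899.5 and 6883 ± 929.5, and was not called (adjusted p = 0.0797, limma). DESeq2 called it (adjusted p = 0.0422), as did limma after knock-out replicate 1 was left out (adjusted p = 0.0372) and with the replicate number as a block (adjusted p = 0.009). Knock-out replicate 6 has no wild-type library of its number and adds nothing to the block estimate. Npy, the neuropeptide Y gene, stood at 177 in both genotypes and was not called.

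Of 16 further transcription factor genes of amacrine cells, 14 were tested, of which 6 fell, 1 rose and 7 were not called (median -0.17). Of all tested genes 22.7% were called lower and 23.6% higher. By library totals the median of these factors was -0.03, with 1 lower and 1 higher, where 11.7% of all tested genes were called lower. Ptf1a and Foxn4, which act in amacrine progenitors, had at most 1 and 2 reads in any library. Ebf3, a factor of glycinergic amacrine cells, fell from 1129 ± 55 to 909.8 ± 60.7 (-0.31, SE 0.05, adjusted p = 8.93e-05, limma). Isl1, a factor of starburst amacrine cells that bipolar and ganglion cells also make, rose from 1459 ± 110.3 to 1795 ± 107 (0.30, SE 0.05). Tfap2c, the gene of AP-2gamma, fell by 0.26 (SE 0.08), and the call ended with libraries scaled to their total (where its value was -0.13 with adjusted p = 0.198). Pax6, which amacrine, horizontal and ganglion cells share, had the highest counts, 6517 ± 226 and 6115 ± 194, and was not called (-0.09, adjusted p = 0.0533). Its value turned to 0.04 with libraries scaled to their total. DESeq2 called it lower (adjusted p = 0.0272), as did limma without wild-type replicate 2 (adjusted p = 0.0485) or knock-out replicate 5 (adjusted p = 0.0382) and with the stricter filter (adjusted p = 0.0497). Without knock-out replicate 5 the number of these factors called lower was 10.

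The genes that handle each transmitter were counted in 4 lists, to be read beside the 22.7% of all tested genes called lower and the 23.6% called higher. Of 8 genes of GABA handling, 3 rose and 1 fell (median 0.13). Slc38a1, a glutamine transporter gene, rose from 7918 ± 143 to 15122 ± 434 (0.93, SE 0.03, adjusted p = 4.36e-14, limma). Slc6a11, the GABA transporter gene GAT3, rose by 0.18 (SE 0.04). The number of GABA handling genes lower was 2 without both of the shallow libraries, 2 when wild-type replicate 4 was left out and 3 when knock-out replicate 2 was. By library totals none was called lower, also at an unadjusted p under 0.05, and 5 were higher.

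Of 8 genes of glycine handling 3 rose and 2 fell, with medians of -0.01 and, by library totals, 0.13. The number lower was 1 without wild-type replicate 2 or 5 and 0 by library totals in limma, where 1 was lower at an unadjusted p under 0.05. Amt (0.51, SE 0.09) and Gldc (0.39, SE 0.07), both of the glycine cleavage system, rose, as did Slc7a10 (0.85, SE 0.26), which stood at only 7.06 ± 2.46 and 13.2 ± 2.7. Slc6a5, the neuronal glycine transporter gene GlyT2, fell by 0.35 (SE 0.09), and Shmt2, a serine hydroxymethyltransferase gene, by 0.20 (SE 0.06). Dld, with the highest counts, stood at 2741 ± 115 and 2561 ± 113 and was not called (adjusted p = 0.0665), although it was without wild-type replicate 4 (adjusted p = 0.0418) or knock-out replicate 4 (adjusted p = 0.0379), and its value turned from -0.10 to 0.04 with libraries scaled to their total.

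Of 10 genes of acetylcholine handling and starburst cells, 9 were tested, of which 5 rose and 1 fell (median 0.17). Fezf1, a transcription factor gene of ON starburst cells, had 23.3 ± 3.3 normalized counts in wild type and between 28.7 and 75.2 in the knock-out, and rose by 0.95 (SE 0.24, adjusted p = 0.00294, limma). Megf10, a cell-surface gene of starburst and horizontal cells, rose by 0.31 (SE 0.08), Isl1 by 0.30, as above, and Ache, the acetylcholinesterase gene, with the highest counts, from 1487 ± 42 to 1822 ± 183 (0.29, SE 0.06). Slc44a1 also rose (0.17), and Prima1, which anchors acetylcholinesterase, fell (-0.26, adjusted p = 0.0424). The high-affinity choline transporter gene Slc5a7 stood at 536 ± 32 and 495 ± 44 and was not called (adjusted p = 0.158). Prima1 was the sole gene called lower, and the number lower was 0 in each fit that left out a library other than replicate 1 of either genotype, in DESeq2 (1 at an unadjusted p under 0.05) and by library totals (also 0 unadjusted).

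Of 12 genes of dopamine synthesis and handling, 11 were tested, of which 2 rose and 2 fell, no larger a share in either direction than the 23.6% higher and 22.7% lower of all tested genes. Their medians were -0.05 and, by library totals, 0.08. Pts (0.37, SE 0.07), of the synthesis of the cofactor of tyrosine hydroxylase, and Slc18a2 (0.35, SE 0.07), the vesicular monoamine transporter gene, rose. Ddc, which makes dopamine from L-DOPA, stood at 15.2 ± 3.3 and 9.40 ± 2.53 and was called lower (-0.64, SE 0.25, adjusted p = 0.0407, limma). The Ddc call ended in DESeq2 (adjusted p = 0.0722) and without wild-type replicate 2 (adjusted p = 0.1), 3 (0.074), 4 (0.0802) or 5 (0.0771) or knock-out replicate 1 (0.0537), 2 (0.0759), 3 (0.0813) or 6 (0.0623). Maoa, the monoamine oxidase A gene, fell by 0.21 at the edge of the threshold. The number of dopamine genes lower was 1 without wild-type replicate 1 or 4 or knock-out replicate 1 or 5, and 0 without wild-type replicate 2, 3 or 5 or knock-out replicate 2, 3 or 6 and by library totals (also 0 unadjusted). Qdpr, with the highest counts, stood at 1371 ± 141 and 1312 ± 93 (adjusted p = 0.461), and its value turned from -0.06 to 0.08 with libraries scaled to their total. Slc6a3, the dopamine transporter gene, had at most 7 reads in any library.

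Genes of other retinal cells were counted beside these, to be read with the 22.7% of all tested genes called lower and the 23.6% called higher. Of 12 ganglion cell genes 10 fell and none rose in limma, edgeR or DESeq2, also at an unadjusted p under 0.05, with a median of -0.34 against -0.35 for the 9 amacrine genes, and their summed level was 26788 to 33256 normalized counts in wild type and 19996 to 26262 in the knock-out. By library totals 7 of the 12 were called lower, beside 11.7% of all tested genes. Of 6 horizontal cell genes 2 rose and 1 fell (median -0.05), with sums of 7062 to 7834 and 6976 to 8129.6. Bipolar cell genes (10) had a median of 0.18, with 5 higher and 1 lower and sums of 26125 to 33198 and 33355 to 41109. Müller glia genes (9) had a median of 0.27, with 5 higher and 1 lower and sums of 95879 to 103824 and 96616 to 110469. Microglia genes summed to between 825 and 1154 in wild type and between 3307 and 4932 in the knock-out, and all 6 of them rose. Pigment epithelium genes summed to 606 to 901 and 602 to 1180.5, vessel genes to 4528 to 5545 and 4854 to 5696, and lens genes to 13.0 to 352 and 16.4 to 66.2. The 352 was wild-type replicate 1, the library that was high for Gad1 and Chat, and the other wild-type libraries reached at most 33.1. Without it all 9 amacrine genes were still called, Gad1 at -0.31 and Chat at -0.42. The part of these cells in the falls of the amacrine genes was not tested.

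**Figure D5:**
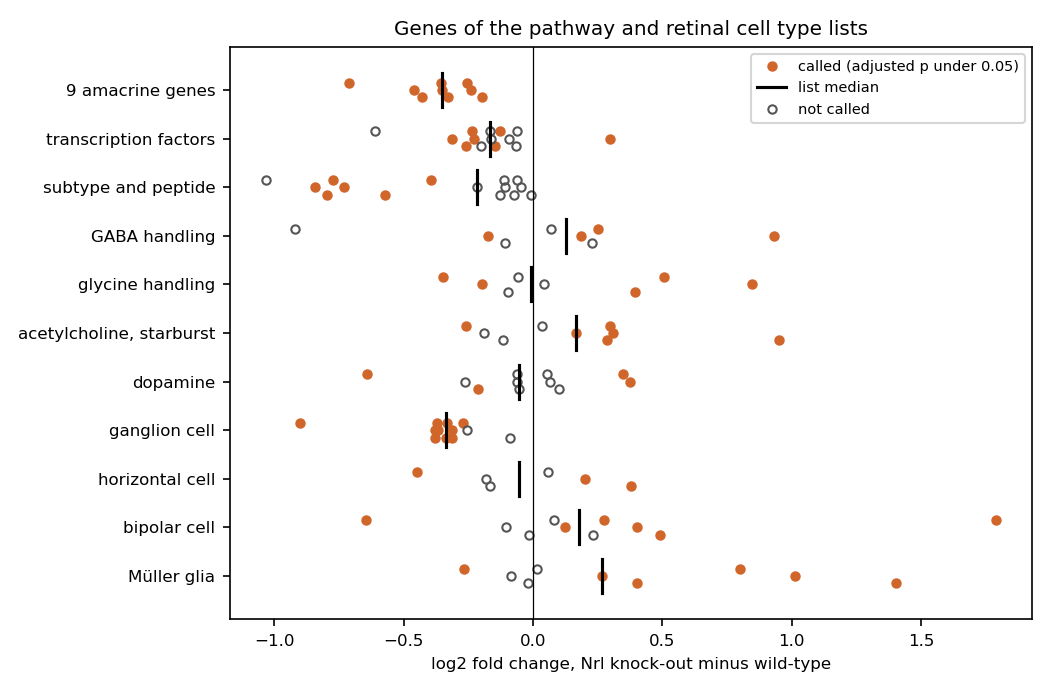
log2 fold changes (horizontal axis) of the tested genes of each list, filled where called by limma and open where not, with the list median as a black bar. The 9 amacrine genes, the subtype and peptide genes and the ganglion cell genes lie below 0 throughout, with medians of -0.35, -0.22 and -0.34. The bipolar and Müller glia medians lie above 0.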

How the data were processed

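Retinal mRNA libraries of 5 wild-type and 6 Nrl knock-out samples were grouped by the titles in the labels. The authors deposited a signal per gene and library, read counts divided by a size factor, with their mean signal, log2 fold change and adjusted p-values, all named in the file headers. A deposited median was not used. Per the submitters' processing notes, TopHat2 2.1.1, HTSeq 0.6.0, DESeq and build mm9 were used, with no role given. Gene annotation and strand setting: not given in the sources used here. Per the labels' protocols, stranded single-end reads were made, and both polyA selection and removal of ribosomal RNA are named.

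Every value of all 11 libraries lay within 1e-06 of a whole number of reads, so whole reads were recovered for 100% of values. On those reads edgeR 4.0.16 called 3254 genes lower and 3506 higher, and DESeq2 1.42.0 called 3318 and 3462, against 3304 and 3448 in the main test. That was limma 3.58.1 in R 4.3.3, two-sided, on log2(value + 1), trend and robust options on, genotype as the only term, for genes of at least 10 in at least 5 libraries. The added 1 understates changes of low genes. Ratios of gene pairs were tested by exact permutation. The steps were tested on simulated counts.

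The genes, lists and tests were chosen with earlier results of these data known. Named genes were the 9, from each amacrine list the 3 called genes with the largest change and the gene with the highest counts, and for each of the 9 the 2 nearest profiles. Some genes that this rule names are not reported here. limma was the main test because the deposited values are size-factor normalized. Counting CVs cover counting error only.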

Additional observations from a re-analysis of the deposited data

Results flagged for a closer look

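In 3 of the 30 sets of values examined (the 9 genes and 6 ratios in each genotype), 1 library stood far from the others of its genotype, where chance gives about 1 in 20. Gad1 stood at 8261 normalized counts in wild-type replicate 1, above 7032 to 7264 in the other 4. Chat stood at 471 in the same library, above 394 to 407. Gad2 stood at 1705 in knock-out replicate 2, above 1422 to 1511 in the other 5. These are the shallowest libraries of each genotype. The summed lens genes were also highest in wild-type replicate 1 (352, against at most 33.1 in the other wild-type libraries), and their part in the Gad1 and Chat values was not tested.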

How the results depend on the processing

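Each of the 9 genes was refitted under 25 alternatives. All 225 values were negative, and 218 kept their call. The 7 that lost it were Slc6a9 (-0.10), Tfap2a (-0.063 and -0.062) and Tfap2b (-0.12) with libraries scaled to their total, in limma and in edgeR, and Tfap2a (-0.20) at an adjusted p under 0.01. With library totals 1711 genes were called lower and 5861 higher in limma, and 1703 and 5882 in edgeR. There the transcription factors called lower were 1 and the GABA handling genes called higher 5 in both tools. The numbers called lower with totals were 0 for GABA, acetylcholine and dopamine genes in both tools, and 0 in limma and 1 in edgeR for glycine genes (at an unadjusted p in limma 0, 0, 0 and, for glycine, 1). With totals that leave out the 10 most abundant genes, the numbers lower were 3 transcription factors, 1 glycine, 0 acetylcholine and 0 dopamine genes. At an adjusted p under 0.01 they were 2, 1, 0 and 0. Dopamine genes called lower were 1 in edgeR, DESeq2 and limma-voom, with TMM scaling, with 0.5 added, without the filter and with the stricter filter. Acetylcholine genes called lower were 0 in DESeq2. Without wild-type replicate 1 and knock-out replicate 2, an alternative chosen after the data were seen, 2 GABA and 1 dopamine genes were lower. The cause was not tested.

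Leaving out 1 library at a time gave 2961 to 3269 genes lower in all and 4 to 10 transcription factors, 1 to 3 GABA, 1 to 3 glycine, 0 to 1 acetylcholine and 0 to 2 dopamine genes called lower. In these fits the ratio differences of Slc18a3 to Chat (-0.022 to 0.090) and Slc32a1 to Gad1 (-0.015 to 0.020) changed sign, and that of Gad2 to Gad1 (0.0011 to 0.043) did not. Slc32a1 to Gad1 was 0.00080 and Th to Chat 0.035 with 5 added, and Gad2 to Gad1 was -0.0092 without both shallow libraries. With less than 1 added Th to Chat was -0.24. Pax6 turned to 0.044 in limma and 0.044 in edgeR with library totals, Dld to 0.038 and 0.038 and Qdpr to 0.075 and 0.073.

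The labels do not say whether same-numbered libraries belong together. Their deviations from the genotype means correlated between -0.13 and 0.22 over the 5 pairs, and no wild-type library correlated best with its own number. These 5 values cannot settle whether the numbers pair the samples. With the replicate block 3329 genes were called lower and 3462 higher, all 9 amacrine genes among those lower, and 0 acetylcholine and 0 dopamine genes were called lower. Knock-out replicate 6 has no wild-type library of its number, so it adds nothing to the block estimates, which equal those without it. Th had only 40 to 91 reads in a library. Counting error alone gives it a coefficient of variation of 12.1% in wild type (observed 20.6%) and 15.2% in the knock-out (observed 11.5%).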
